A study of Mus musculus with 11 samples.

Results

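The AP-1 genes described here are Fos, Fosb, Fosl1, Fosl2, Jun, Junb, Jund, Batf3 and Jdp2, taken by their symbols whatever their values, 9 of the 48709 Ensembl gene IDs in the count tables. Their transcripts were counted by RNA sequencing in primary hippocampal neurons of the mouse, neurons taken from the hippocampus and kept in culture for 10 days at 20% oxygen. The hypoxia group is 5 libraries from cultures then held at 1% oxygen for 4 h, and the control group is 6 libraries from cultures of the same isolation that stayed at 20% oxygen. No genotype, strain, sex, age or drug is given for either group, and oxygen is the only difference the labels state. The labels do not say whether the libraries of a group came from separate dishes, and the p-values therefore rest on the spread among these libraries, part of which may be technical. RNA came from whole cultures, in which fewer cells of a type and less RNA per cell cannot be told apart.

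AP-1 is a transcription factor made of paired basic leucine zipper proteins. Jun proteins can pair with themselves or with Fos proteins, whereas Fos proteins need a partner, and the pairs bind the sequence known as the TPA response element or the related cyclic AMP response element. Fos, Fosb, Junb and often Jun are immediate-early genes in neurons: calcium entry and MAP kinase signalling switch them on within minutes, and their mRNAs decay fast. Fosl2 and Jund are more steadily expressed, and Batf3 and Jdp2 are small partners that can hold Jun proteins in repressive pairs.

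The library totals lay between 1.662e+07 counts (control 1) and 3.192e+07 counts (hypoxia 5) and did not differ between groups beyond the spread of the libraries (exact permutation test, 2-sided, p = 0.801). Of 16235 genes tested with edgeR, 1644 were higher and 2078 lower in hypoxia, a balance that moved with the scaling (1444 and 2311 with total counts only, 2041 and 1812 with DESeq2). Markers of neurons summed to between 7266 and 7930 CPM (counts scaled to 1000000 per library) over the libraries, those of astrocytes to between 1447 and 1671 CPM, and those of microglia to between 13.7 and 16.3 CPM, with Cx3cr1, P2ry12 and Itgam below 1 CPM throughout. The cultures thus held glial transcripts beside neuronal ones. None of the 6 pan-neuronal markers passed the test, and 2 of 6 markers of excitatory neurons, Neurod6 and Tbr1, and 1 of 6 of interneurons, Lhx6, were higher. None of 5 markers of fibroblasts and meninges passed, with summed levels of 127 to 178 CPM in control and 109 to 197 CPM in hypoxia. In the oligodendrocyte lineage, 3 of 7 markers were lower, and the summed level ran from 113 to 156 CPM in control and from 94.7 to 123 CPM in hypoxia. In the endothelial and mural list the pericyte marker Pdgfrb was higher, the summed level ran from 17.9 to 22.04 CPM in control and from 23.9 to 33.8 CPM in hypoxia, and Pecam1, Cldn5 and Cdh5 stayed below 1 CPM. Of 7 astrocyte markers, Aqp4 was lower. The part of these shifts in the AP-1 values was not tested.

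Every AP-1 gene that could be tested had a positive log2 fold change in hypoxia, and 5 of 8 passed the test: Fos, Jun, Fosb, Jdp2 and Fosl2. None was lower. Among all genes tested, 10.1% were called higher and 22.9% were called in either direction at a Benjamini-Hochberg adjusted p under 0.05. Fos and Jun stood well above the other members, at 2.998-fold and 2.43-fold, and only 0.394% of tested genes were called and higher by at least 2-fold. In 4 members, Fos, Fosl2, Jun and Jdp2, every hypoxia library lay above every control library, which held for 6.72% of tested genes. The median log2 fold change was 0.51 over the 8 tested members and -0.02 over all tested genes. Batf3, with 32 counts in all libraries together, did not pass the filter on low counts.

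**Figure D1:**
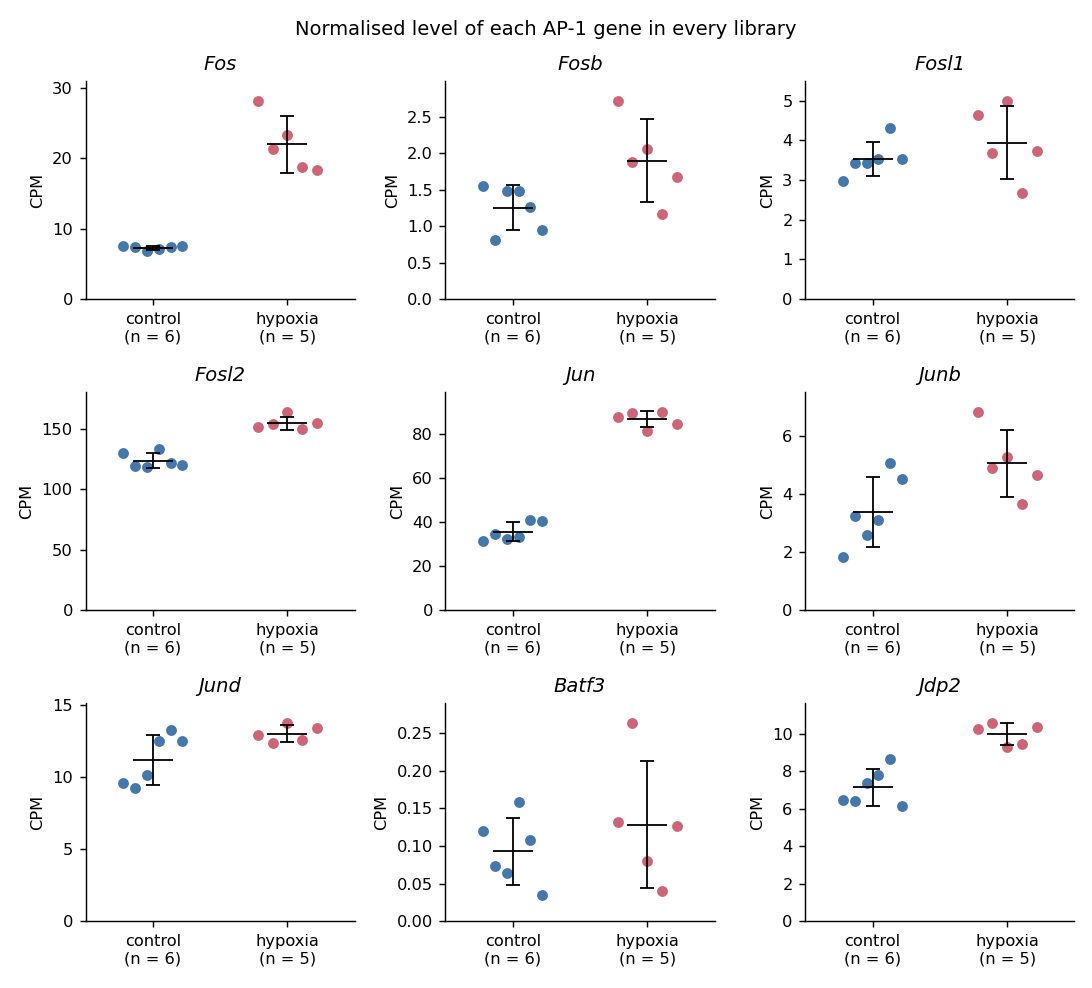
Level of each of the 9 AP-1 genes in CPM (linear axes from 0) in every control and hypoxia library (points, in replicate order), with the group mean and SD (black). Fos, Fosl2, Jun and Jdp2 show no overlap between the groups, and the 5 hypoxia libraries of Fos spread from 18.3 to 28.2 CPM against 6.88 to 7.58 CPM in the 6 control libraries.

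Fos (ENSMUSG00000021250, GRCm38 chromosome 12, 85473890 to 85477273, plus strand) encodes the founding member of its family and showed the largest change. Its level in control libraries ran from 6.88 CPM through a median of 7.41 to 7.58 CPM. In hypoxia libraries 1 to 5 it was 28.2, 21.3, 23.3, 18.7 and 18.3 CPM. Every hypoxia library was thus more than double any control, and hypoxia 1 was the highest. On the log2 scale the change was 1.58 ± 0.10 (SE, edgeR adjusted p = 1.84e-08), with a 95% interval of 2.60 to 3.46-fold, and 16 tested genes had a larger value. In control the coefficient of variation was 3.69%, below the 7.24% that counting error alone would give, and in hypoxia it was 18.3% against 4.22% from counting. Control Fos reads per library numbered 127 to 225, hypoxia reads 464 to 643.

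Fosb (ENSMUSG00000003545, chromosome 7, 19302696 to 19310051, minus strand), whose protein is best known from lasting responses to repeated neuronal activity, was scarce, with 22 to 62 reads per library. Its level was 0.810, 1.37 and 1.55 CPM (lowest, median and highest) in control. In hypoxia 1 to 5 it was 2.72, 1.88, 2.05, 1.17 and 1.67 CPM. The groups overlapped through hypoxia 4, and hypoxia 1 was again the highest. On the log2 scale the change was 0.60 ± 0.21 (SE, edgeR adjusted p = 0.0490). Leaving out any one of controls 2 to 6 or hypoxia 1, 2 or 3 ended this call, with the largest adjusted p, 0.143, when hypoxia 1 was left out. Over all alternatives the edgeR and DESeq2 adjusted p of Fosb ran from 0.0166 to 0.143.

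The promoters of Fos and Jun are shown because these genes changed most, and those of Fosb and Junb because they are close relatives with a smaller change. Each runs from 250 bases before to 50 bases after the RefSeq start site (GRCm38.p6), 5′ to 3′ on the gene's strand, at chr12:85473640-85473939, plus strand (Fos), chr7:19309996-19310295, minus strand (Fosb), chr4:95052173-95052472, minus strand (Jun) and chr8:84978699-84978998, minus strand (Junb). Capitals mark the core TGACG of the cyclic AMP response element and, in Jun, TGACATCA, a variant of the TPA response element known from this promoter.
Fos: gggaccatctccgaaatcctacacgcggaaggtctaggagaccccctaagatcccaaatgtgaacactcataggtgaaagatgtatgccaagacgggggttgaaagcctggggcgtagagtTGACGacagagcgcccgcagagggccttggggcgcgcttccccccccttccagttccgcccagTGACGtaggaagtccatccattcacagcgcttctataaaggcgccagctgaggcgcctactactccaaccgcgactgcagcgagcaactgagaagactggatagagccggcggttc
Fosb: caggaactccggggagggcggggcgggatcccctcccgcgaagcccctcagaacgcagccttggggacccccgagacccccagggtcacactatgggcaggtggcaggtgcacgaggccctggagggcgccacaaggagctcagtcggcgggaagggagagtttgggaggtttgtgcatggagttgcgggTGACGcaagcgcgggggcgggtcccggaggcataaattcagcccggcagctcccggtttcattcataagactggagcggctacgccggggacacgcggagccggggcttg
Jun: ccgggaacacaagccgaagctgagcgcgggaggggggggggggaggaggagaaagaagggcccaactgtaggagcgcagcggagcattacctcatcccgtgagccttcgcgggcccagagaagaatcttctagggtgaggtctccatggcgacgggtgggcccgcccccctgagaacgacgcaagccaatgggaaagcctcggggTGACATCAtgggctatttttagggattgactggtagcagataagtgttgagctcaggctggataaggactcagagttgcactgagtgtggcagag
Junb: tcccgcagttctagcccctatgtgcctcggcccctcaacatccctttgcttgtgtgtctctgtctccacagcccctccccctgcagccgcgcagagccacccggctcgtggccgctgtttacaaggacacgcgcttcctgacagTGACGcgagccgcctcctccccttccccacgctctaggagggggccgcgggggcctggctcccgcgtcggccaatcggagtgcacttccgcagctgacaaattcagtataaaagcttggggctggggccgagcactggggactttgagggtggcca
On either strand, TGACG occurred in the windows of Fos, Fosb, Junb and Jdp2, 4 of the 8 members with a promoter sequence, and in 20.8% of all 32851 promoters in the RefSeq table. In Fos it lay at -129 to -125 and at -66 to -62 relative to the start, in Fosb at -60 to -56 and in Junb at -106 to -102. The share of 20.8% counts single windows, whereas members are counted by gene and Jdp2 has 3 windows. Windows of members with TGACG held 58.7 to 74.3% G and C, against a median of 52.7% over all promoters. The counts were not adjusted for this. TGACATCA lay at -45 to -38 in Jun and was found in 3.62% of promoters. The full elements TGACTCA and TGACGTCA, found in 5.20% and 1.79% of promoters, and the CArG box bound by SRF, found in 1.63%, had no match in these windows of any member. Nothing further than 250 bases before the start was searched, so these misses do not show that a gene lacks the element. The core of the hypoxia response element, ACGTG, was found in 19.6% of promoters and matched in Jund, Batf3 and Jdp2, where at Jdp2 it overlaps TGACG. Both matches of Jdp2 lie in 1 of its 3 RefSeq windows, and the Jund window (chr8:70697489-70697788) ends upstream of the GENCODE start of that gene at 70698949. Neither Fos nor Jun held it in the window. A match is a description of the letters, not a bound site.

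Fosl2 (ENSMUSG00000029135, chromosome 5, 32135801 to 32157842, plus strand), which encodes FRA-2, had the most reads of all members. Control libraries ran from 119 CPM through a median of 121 to 133 CPM. Hypoxia 1 to 5 stood at 151, 154, 164, 150 and 154 CPM. The groups did not overlap, and the change was small but even: 0.32 ± 0.04 on the log2 scale (SE, edgeR adjusted p = 2.91e-05), or 1.25-fold with a 95% interval of 1.18 to 1.32. Fosl1, which encodes FRA-1, had the smallest change. Control libraries averaged 3.53 ± 0.432 CPM and hypoxia libraries 3.94 ± 0.913 CPM (SD, n = 6 and n = 5), with a log2 fold change of 0.14 and a 95% interval of -0.15 to 0.44 (edgeR adjusted p = 0.503). Its value is uncertain, since 1163 of its 2033 exonic bases (GENCODE M21) overlap Ccdc85b on the opposite strand and the library kit does not mark strand. Ccdc85b had 923 reads in all libraries and Fosl1 had 1094.

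Jun (ENSMUSG00000052684, chromosome 4, 95049034 to 95052222, minus strand), a gene with 1 exon, was both abundant and strongly changed. Its level in control was 31.3, 34.0 and 40.9 CPM (lowest, median and highest). In hypoxia 1 to 5 it was 87.6, 89.1, 81.2, 89.7 and 84.4 CPM. The lowest hypoxia library was close to double the highest control, and the hypoxia libraries differed by a coefficient of variation of 4.14%. On the log2 scale the change was 1.28 ± 0.07 (SE, edgeR adjusted p = 2.52e-09), and Jun ranked 7 of 16235 genes by p-value, against 18 for Fos. Of its 3189 exonic bases, 232 overlap the antisense gene Junos, which had 151 reads in all libraries against 17106 for Jun.

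Junb (ENSMUSG00000052837, chromosome 8, 84974484 to 84978718, minus strand), whose protein often restrains Jun, was at 1.85, 3.17 and 5.07 CPM (lowest, median and highest) in control. In hypoxia 1 to 5 it was at 6.84, 4.89, 5.27, 3.68 and 4.67 CPM. The groups overlapped: controls 5 and 6 lay within the hypoxia range, and hypoxia 1 was the highest, as for Fos and Fosb. The log2 fold change of 0.54 (SE 0.20) had a 95% interval of 0.12 to 0.96 and did not pass after adjustment (edgeR adjusted p = 0.0588). It did pass without control 5, control 6 or hypoxia 4, at adjusted p-values down to 0.0149. Of its exonic bases, 173 overlap Prdx2 on the opposite strand, an abundant gene with 60972 reads against 1225 for Junb. How reads on these bases were counted was not given, so the level of Junb is uncertain.

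Jund (ENSMUSG00000071076, chromosome 8, 70698949 to 70700616, plus strand), the steadily expressed member, was at 9.28, 11.4 and 13.3 CPM (lowest, median and highest) in control. Hypoxia 1 to 5 stood at 13.0, 12.4, 13.8, 12.6 and 13.4 CPM. Controls 4 to 6 lay within the hypoxia range and controls 1 to 3 below it. On the log2 scale the change was 0.21 ± 0.09 (SE) with a 95% interval of 0.02 to 0.40 (edgeR adjusted p = 0.114), and it passed without control 5 (adjusted p = 0.0366). The gene Gm11175 overlaps 877 of its 1668 exonic bases on the opposite strand and was listed at 0 in every library.

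The Jund and Junb transcripts are rich in G and C (67.1% and 62.6%), and such genes moved together between libraries. The genes in the top 10% for GC, from 57.6% up, had a median log2 deviation from their own mean of -0.22 in control 1, -0.09 in control 2, 0.03 in control 3, 0.08 in control 4, 0.18 in control 5 and 0.16 in control 6. Over the hypoxia libraries this value ran from -0.10 to 0.07. Jund was at 9.28 to 10.2 CPM in controls 1 to 3 and at 12.5 to 13.3 CPM in controls 4 to 6, where GC-rich genes were also higher. With a correction for GC in each library, a choice made after the data were seen, the log2 fold change of Jund was 0.28 (edgeR adjusted p = 0.00201) and that of Junb 0.63 (edgeR adjusted p = 0.00344). Both then passed, so that 7 of 8 members were called higher, beside 14.8% of all tested genes called higher and 29.1% called in either direction under the same correction. Fosl1, at 58.5% GC also in the top 10%, did not pass with the correction (log2 fold change 0.18, edgeR adjusted p = 0.296). Jun too was higher in controls 5 and 6, at 40.9 and 40.6 CPM, than in controls 1 to 4, at 31.3 to 34.7 CPM. The log2 fold changes of Fos and Jun were 1.57 and 1.29 with the correction.

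**Figure D2:**
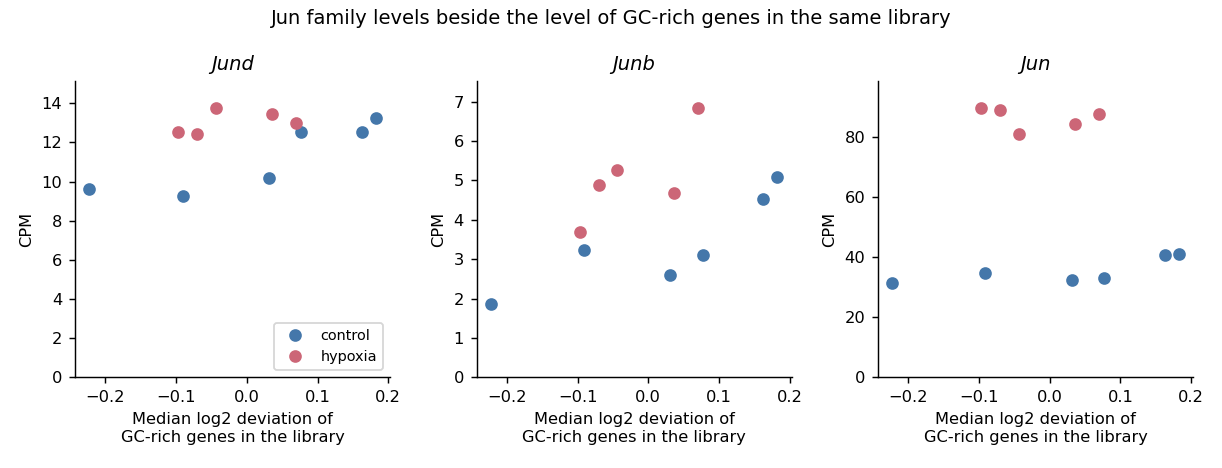
Level of Jund, Junb and Jun (CPM, linear axes from 0) in each control and hypoxia library (points) against the median log2 deviation of GC-rich genes in that library. Among the controls, Jund, Junb and Jun were each highest in control 5, where GC-rich genes were also highest, and the groups of Jun did not overlap (40.9 CPM at most in control, 81.2 CPM at least in hypoxia).

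Jdp2 (ENSMUSG00000034271, chromosome 12, 85599027 to 85639878, plus strand), a repressive partner of Jun, was at 6.18, 6.90 and 8.67 CPM (lowest, median and highest) in control. In hypoxia 1 to 5 it was at 10.3, 10.6, 9.30, 9.45 and 10.4 CPM, above all controls. On the log2 scale the change was 0.48 ± 0.09 (SE, edgeR adjusted p = 0.000999), or 1.39-fold. Jdp2 lies on the same chromosome as Fos and the same strand. Batf3 (ENSMUSG00000026630, chromosome 1, 191097847 to 191108945), known from dendritic cells, had 1 to 5 reads in control libraries and 1 to 7 in hypoxia libraries. Batf3 was tested only with no filter on low counts, and no difference was detected (log2 fold change 0.48, edgeR adjusted p = 0.630).

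**Figure D3:**
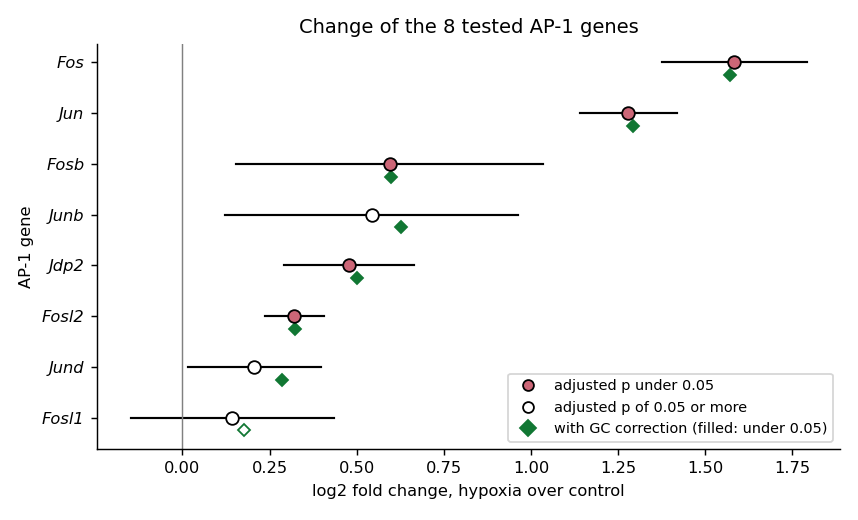
Log2 fold change of the 8 tested AP-1 genes (circles, with 95% intervals from the edgeR fit) and the same with a GC correction in each library (diamonds). Filled symbols have an adjusted p under 0.05. Fos at 1.58 and Jun at 1.28 lie apart from the other members, which run from 0.14 to 0.60.

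Whether one member changed more than another was tested on the log2 ratio of each pair of members within a library (CPM with a pseudocount of 0.5), for 28 pairs with p-values adjusted over them. Of these, 13 passed (exact permutation test over the 462 splits, 2-sided). Fos rose more than 6 other tested members, and so did Jun. Against Fosl2, the change of Fos was larger by 1.19 on the log2 scale, and the difference of Fosl2 minus Jun was -0.96 (exact permutation adjusted p = 0.00758 for both, from the smallest p that the splits allow, 0.00216). Against Jund, the change of Jun was larger by 1.06 and against Junb by 0.73 (exact permutation adjusted p = 0.00758 and 0.0165). The only other pair that passed was Jdp2 over Jund (Jund minus Jdp2 -0.25, exact permutation adjusted p = 0.0466), and leaving out any one library other than hypoxia 3 ended that call (adjusted p up to 0.123). Jun over Fosb (Fosb minus Jun -0.84, exact permutation adjusted p = 0.0202) was lost without hypoxia 4, at 0.0667, and with a pseudocount of 0.1, at 0.0693. Fos and Jun were not told apart: the log2 ratio of Fos to Jun was -2.20 ± 0.153 in the controls and -1.97 ± 0.262 under hypoxia (SD, n = 6 and n = 5, exact permutation adjusted p = 0.178). Fosb, Fosl1, Fosl2 and Junb each passed against Fos and against Jun and against no other member, although Fosl1 against Junb passed without control 6 or hypoxia 3 (exact permutation adjusted p = 0.0342 and 0.0356) and Fosl1 against Jdp2 without hypoxia 3 (0.0133). With 1 library left out, 11 to 15 of the 28 pairs passed.

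Levels of different genes were compared as CPM per kilobase of exons. The length joins the exons of all annotated transcripts of a gene, 6243 bases for Fosb and 9680 for Fosl2. It can therefore exceed the length of the transcripts present. How reads on bases shared with an opposite-strand gene were counted was not given. Such bases are 1163 of 2033 in Fosl1 and 877 of 1668 in Jund. They are fewer in Jun (232 of 3189), Junb (173 of 2301, shared with the abundant Prdx2) and Jdp2 (165 of 2148). The levels per kilobase, and the family shares below that use them, are therefore uncertain. In control the order was Fosl2 (12.8 ± 0.634), Jun (11.1 ± 1.33), Jund (6.74 ± 1.04), Jdp2 (3.33 ± 0.456), Fos (3.11 ± 0.115), Fosl1 (1.74 ± 0.213), Junb (1.48 ± 0.523), Fosb (0.201 ± 0.0501) and Batf3 (0.0583 ± 0.0277). Of neighbours in this order, Fosl2 and Jun, Jdp2 and Fos, and Fosl1 and Junb overlapped in range. In hypoxia Jun came first at 27.1 ± 1.12, ahead of Fosl2 at 16.0 ± 0.571 with no overlap, followed by Fos at 9.34 ± 1.71, overlapping Jund at 7.81 ± 0.344. Lower in the order, Jdp2 was at 4.65 ± 0.268 and Junb and Fosl1, which overlapped, at 2.20 ± 0.5002 and 1.94 ± 0.449. Fos thus overlapped Jdp2 in control and lay above it in every hypoxia library.

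The make-up of both families shifted. By CPM per kilobase, Fos made up 17.5 ± 0.791% of the Fos family in control and 33.7 ± 3.53% in hypoxia, and Fosl2 made up 71.6 ± 1.38% and 58.2 ± 4.29% (SD, n = 6 and n = 5, exact permutation adjusted p = 0.00379 for both, over 7 shares). Fosl2 therefore remained the largest part of the Fos family in every library, at 51.5% or more. The size of the Fos shift depends on dividing reads by length, since Fosl2 has 9680 annotated exonic bases and Fos 2352. The shift was 16.3 points by CPM per kilobase and 6.62 points by CPM. Within the Jun family, Jun went from 57.7 ± 2.57% to 73.0 ± 1.96% and Jund from 34.8 ± 2.54% to 21.1 ± 1.34% (exact permutation adjusted p = 0.00379 for both). The share of Fosl1 was lower in hypoxia (9.76 ± 1.22% and 6.98 ± 1.13%, exact permutation adjusted p = 0.00909), a call lost when reads were not divided by length (adjusted p = 0.0758). The shares of Fosb (1.12% and 1.09%) and Junb (7.46% and 5.93%) did not pass (exact permutation adjusted p = 0.844 and 0.159). Shares within a family have a fixed sum, so a lower share need not mean a lower level. The mean levels of Fosl2, Jund and Fosl1 per kilobase were not lower in hypoxia. The summed level of the Jun family was 19.4 ± 2.70 CPM per kilobase in control and 37.1 ± 0.859 in hypoxia, and that of the Fos family 17.8 ± 0.649 and 27.5 ± 2.35.

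**Figure D4:**
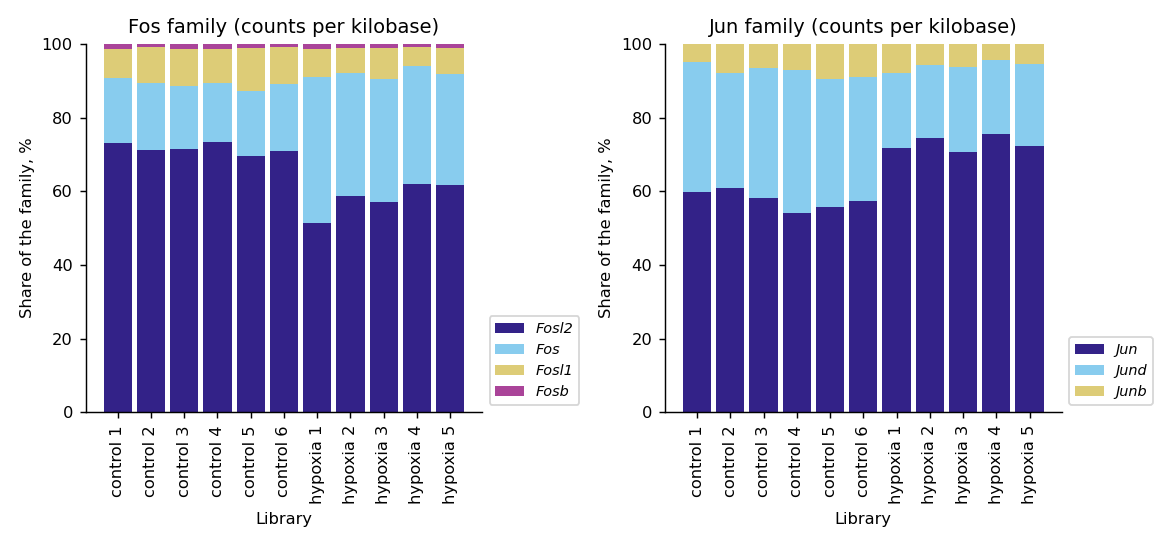
Share of each member in the Fos family (left) and the Jun family (right) by CPM per kilobase, in percent, for each library (bars). The Fos part runs from 16.2 to 18.3% over the control bars and from 30.1 to 39.5% over the hypoxia bars, and the Jun part from 54.0 to 61.0% and from 70.7 to 75.5%.

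The 3′ untranslated regions of fast-decaying mRNAs often hold AU-rich elements, built from the pentamer ATTTA in the DNA letters of the annotation. Windows of 30 bases around the densest such stretch are shown for Fos, Fosl2 and Jun, which have the most pentamers, and for Junb, with the pentamers in capitals (GENCODE M21 transcripts Fos-201, Fosl2-201, Jun-201 and Junb-201).
Fos: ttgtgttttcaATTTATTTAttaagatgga
Fosl2: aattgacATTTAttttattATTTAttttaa
Jun: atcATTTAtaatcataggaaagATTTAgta
Junb: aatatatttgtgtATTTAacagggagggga
Fos held 4 pentamers in 815 bases (4.91 per kilobase), a density reached by 5.02% of 13708 tested genes with such a region of at least 100 bases. Junb held 2 in 485 bases (4.12 per kilobase, reached by 8.16%) and Jun 4 in 1233 bases (3.24 per kilobase, reached by 15.0%). Fosl2 held 8 in 4653 bases, or 1.72 per kilobase, near the median of all genes of 1.28. The longer element TTATTTATT was found once each in Fos and Fosl2 and in 8.46% of tested genes. Jund and Fosl1 held 1 pentamer each, Fosb 1 in 2302 bases, and Jdp2 and Batf3 none. The densest members, Fos, Junb and Jun, were at 1.58, 0.54 and 1.28 on the log2 scale in hypoxia, so density and size of change did not run in one order.

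Genes around AP-1 were read from 5 further lists. Of 15 tested basic leucine zipper partners, 5 were higher and none lower, a called share of 33.3% beside 22.9% of all genes, with a median log2 fold change of 0.07. Atf3, a stress-induced partner of Jun, rose from 1.39 ± 0.132 to 5.62 ± 0.604 CPM (log2 fold change 2.02), Atf4 from 134 ± 7.94 to 289 ± 5.95 CPM, and the small Maf protein Maff from 2.20 ± 0.255 to 7.21 ± 1.04 CPM (edgeR adjusted p = 2.52e-09, 7.28e-11 and 4.81e-08). Ddit3 and Nfe2l1, named after their values were seen, rose 1.48-fold and 1.11-fold. Atf2, a classical partner of Jun, did not pass (0.09 on the log2 scale, edgeR adjusted p = 0.118).

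Of 22 genes of the MAP kinase routes that act on Fos and Jun, 1 was higher and 2 were lower, a called share of 13.6% beside 22.9% of all genes. That count rests on control 1 and on GC: without control 1 it was 4 higher and 2 lower, and with the GC correction 3 higher and 2 lower. Map3k13, a kinase upstream of JNK also called LZK, rose from 30.4 ± 1.72 to 44.3 ± 3.67 CPM, while Map3k11, another kinase of that tier, fell from 6.97 ± 1.22 to 4.51 ± 0.652 CPM. Rps6ka3, which encodes the kinase RSK2, fell by 0.25 on the log2 scale (edgeR adjusted p = 0.00263). The JNK genes Mapk8, Mapk9 and Mapk10 had log2 fold changes of 0.07, -0.03 and 0.01 and did not pass. These are transcript levels and say nothing of kinase activity.

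Of 12 factors that act at the Fos promoter, 5 were higher and none lower, a called share of 41.7% beside 22.9% of all genes. With a replicate block 3 were higher, with total counts only 4, and with a library left out 4 to 6. Srf, which encodes the serum response factor that binds the CArG box, rose from 37.0 ± 2.69 to 74.5 ± 5.65 CPM (log2 fold change 1.00, edgeR adjusted p = 6.04e-09). The coactivators Crebbp and Ep300 rose 1.24-fold and 1.15-fold. Elk3 and Stat3, named after their values were seen, had log2 fold changes of 0.25 and 0.11 (edgeR adjusted p = 0.0156 and 0.0492). Creb1, Elk1 and Elk4 did not pass, at -0.09, -0.08 and 0.10.

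Among 17 genes of turnover and cofactors of Fos and Jun, 3 were lower, beside 12.8% of all tested genes called lower. The median log2 fold change of the list was -0.04. Trib1, a pseudokinase adaptor of the COP1 ligase, fell from 5.10 ± 0.466 to 3.66 ± 0.480 CPM and the deacetylase gene Sirt1 from 17.2 ± 1.92 to 13.4 ± 0.925 CPM. Khsrp, which binds AU-rich elements and was named after its values were seen, fell by 0.18 on the log2 scale. Fbxw7, whose product marks Jun for degradation, did not pass, at 0.04 on the log2 scale.

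Of 26 tested genes described as AP-1 targets, 11 were higher and 1 was lower, a share of 46.2% beside 22.9%, with a median log2 fold change of 0.09. Hmox1, which encodes heme oxygenase 1, rose 2.86-fold, the growth factor gene Vegfa 2.02-fold, and Plau, the urokinase gene, from 2.24 ± 0.347 to 3.92 ± 0.228 CPM (log2 fold change 0.81, edgeR adjusted p = 6.36e-05). Hmox1 and Vegfa are also targets of the hypoxia-inducible factors, and the list does not separate these routes. Ccnd1, which encodes cyclin D1 and was named after its values were seen, was the member that fell, by 0.37 on the log2 scale. The matrix protease genes Mmp3, Mmp9 and Mmp14 did not pass, with log2 fold changes of -0.23, 0.09 and 0.08.

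**Figure D5:**
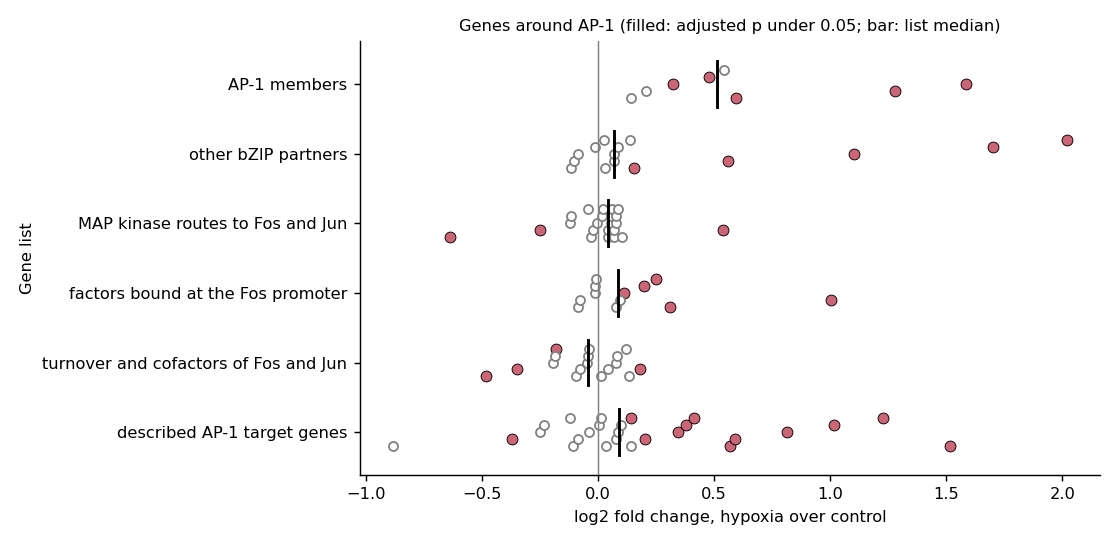
Log2 fold change of each tested gene (points; filled, adjusted p under 0.05) in the AP-1 family and in 5 lists around it, with the list medians (black bars). The AP-1 median lies at 0.51, and the medians of the other lists between -0.04 and 0.09.

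Likeness to Fos and Jun over the 11 libraries was measured as the root mean square difference in log2 CPM after each gene was centred on its own mean. Nearest to Fos were Hmox1 at 0.12, Chac1, which encodes a glutathione-degrading enzyme, at 0.14, and Egr2, a zinc finger factor, at 0.16. Nearest to Jun were the MAP kinase phosphatase gene Dusp1 at 0.13, Pfkfb3 of the control of glycolysis at 0.15 and Srf at 0.17. The measure spans both groups and so favours genes with a change like that of Fos or Jun. A rise in the genes picked therefore follows from the choice. Egr2 went from 1.40 ± 0.0749 to 4.16 ± 0.629 CPM and Dusp1 from 6.42 ± 0.547 to 17.4 ± 0.883 CPM.

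In the authors' deposited table of higher genes, 7 members are listed, with log2 fold changes of 1.57 for Fos, 1.31 for Jun, 0.66 for Junb, 0.58 for Fosb, 0.51 for Jdp2, 0.33 for Fosl2 and 0.25 for Jund. The adjusted p-values in the authors' deposited table were 0.0462 for Junb and 0.0290 for Jund, the members that did not pass the edgeR test. Fosl1, which also did not pass the edgeR test, and Batf3 are in neither of the authors' deposited tables.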

How the data were processed

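Polyadenylated RNA was made into TruSeq v2 libraries, a kit that keeps no strand, and read as single ends of 50 bases, per the labels' protocols. STAR 2.5.2b, featureCounts, Subread 1.5.1, FastQC 0.11.5, DESeq2 and the build mm10 are named in the submitters' processing notes. The annotation release, strand setting and treatment of reads matching several places were not given in the sources used here. The authors deposited raw counts per gene, and tables of their own calls with log2 fold changes, adjusted p-values and a normalized signal per library, which was not used here.

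Counts were tested with edgeR 4.0.16 in R 4.3.3 (filterByExpr, TMM, quasi-likelihood F test, 2-sided, no covariate, Benjamini-Hochberg over 16235 genes), and the code was checked on simulated counts. CPM uses TMM-scaled libraries. Errors are SD, or SE for log2 fold changes, with 95% intervals from the same fit. Exact permutation tests used all 462 splits. Gene lengths, GC, overlaps and transcript ends came from GENCODE M21 (GRCm38) and promoters from RefSeq. Alternatives were DESeq2 1.42.0, other scalings, no filter, a replicate block, each library left out and, added after seeing the data, a GC correction.

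The members and lists were chosen with earlier results of these data known. Named were all members, the 3 called genes of smallest p in each list or, with none called, the most abundant, and the 3 genes nearest to Fos and to Jun (mean of at least 1 CPM, predicted genes left out), others being marked as named after their values were seen or given as examples that did not pass. The result of 1 listed gene is not reported here.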

Additional observations from a re-analysis of the deposited data

Results flagged for a closer look

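A search for single libraries that stand apart from their group covered 76 sets of values, of which chance alone would flag about 1 in 20, and found 4. None of the 9 AP-1 genes had such a library. Control 1 had the lowest total, 1.662e+07 counts, with the other controls between 2.673e+07 and 3.142e+07. Among genes named beside AP-1, Trib1 was at 4.22 CPM in control 6 (other controls 5.11 to 5.54 CPM), Chac1 at 8.39 CPM in control 4 (6.55 to 6.78 CPM) and Egr2 at 1.25 CPM in control 1 (1.40 to 1.46 CPM). The search took each set by itself. Over all genes, the chi-square of the counts per gene was 13.2 to 26.3 between control 2 and each other control. It was 8.51 to 14.0 between control 1 and controls 3 to 6, and 2.31 to 4.98 among controls 3 to 6. In the hypoxia group it was 8.28 to 9.92 between hypoxia 5 and each other library, and 2.44 to 7.73 among hypoxia 1 to 4.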

How the results depend on the processing

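Fos, Jun, Fosl2 and Jdp2 were called in all 17 alternatives, at log2 fold changes of 1.48 to 1.65, 1.25 to 1.33, 0.31 to 0.35 and 0.44 to 0.55. Fosl1 was called in none. The count of members called ran from 4 to 7 (5 with the settings reported). Fosb was lost with total counts only (log2 fold change 0.58) and ran from 0.44 to 0.72 with a library left out. Junb passed with the DESeq2 test (0.58), with no filter (0.55) and with the GC correction (0.63), and ran from 0.42 to 0.70 with a library left out. Jund passed with the GC correction (0.28) and ran from 0.16 to 0.27 with a library left out. Batf3 was tested only with no filter (0.48, edgeR adjusted p = 0.630). All genes called numbered 3722, of which 44.2% were higher, 3755 with total counts only (38.5%), 3749 with DESeq2 size factors (49.9%), 3853 with the DESeq2 test (53.0%) and 4725 with the GC correction (50.9%).

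Replicate numbers are shared by the groups, but same-numbered libraries deviated together unevenly (correlations of -0.10, 0.14, -0.06, -0.06 and 0.31 for numbers 1 to 5), so they were not taken as pairs. With a replicate block, Fosb was lost (log2 fold change 0.50, edgeR adjusted p = 0.103), 4 members were called, the factors at the Fos promoter went from 5 calls to 3, and all calls numbered 2946. As 5 pairs allow no exact p below 0.0625, paired tests passed 0 of 28 member pairs and 0 of 7 shares.

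Values that changed sign were those near 0. The difference in total counts, -796300 with all libraries, ran from -2886300 to 99981 with a library left out. The difference between Fosb and Fosl2 was -0.0629 with a pseudocount of 2 and ran from -0.0034 to 0.23 with a library left out. That of Fosb and Jdp2 was 0.0626 with a pseudocount of 0.1 and ran from -0.13 to 0.0786. Those of Fosb and Junb, Fosl1 and Jund, and Junb and Jdp2 ran from -0.25 to 0.0742, -0.16 to 0.0055 and -0.0243 to 0.21. The Fosb share differed by 0.11 points when length was ignored and by -0.12 to 0.050 points with a library left out. Causes were not tested. Depth limits Batf3 and Fosb most.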
